A study of Mus musculus with 2 samples.

Results

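The urea cycle and ammonia handling genes are 10 genes chosen by name: Nags, Cps1, Otc, Ass1, Asl, Arg1, Slc25a15, Slc25a13, Glul and Gls2. Of these, 8 had a named probe on the array, 1 probe each, among 16390 named genes in all. Ass1 and Gls2 were not analysed here, because no probe was named for them in the annotation used. Expression was measured on 2 arrays read in 2 colours, with 1 array per comparison. The first comparison set P1 liver from MMP-14 KO mice against P1 liver from WT mice, with RNA mixed from 2 livers per genotype. The labels call this material postnatal day 1, whereas the design text says E18.5, shortly before birth, and the name P1 is kept here. The second set E14 Dlk+ cells from MMP-14 KO livers against E14 Dlk+ cells from WT livers, each genotype as RNA of 100000 cells sorted from 3 livers. These cells were sorted as positive for Dlk and negative for CD45, CD71 and Ter119, and the design text gives their age as E14.5. MMP-14 is a membrane-anchored metalloproteinase, and strain, sex and the nature of the MMP-14 allele are not given in the sources used here. On both arrays KO RNA carried Cy3 and WT RNA carried Cy5, so an effect of the dye on a gene cannot be told apart from genotype.

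The urea cycle turns ammonia, which is toxic to the brain, into urea in periportal hepatocytes. Ammonia enters as carbamoyl phosphate in the mitochondrion, passes through citrulline, argininosuccinate and arginine, and leaves as urea, while carriers move ornithine, citrulline and aspartate across the inner membrane. Ammonia that escapes is captured as glutamine by glutamine synthetase in the hepatocytes around the central vein. The liver acquires the cycle before and around birth, when the placenta no longer clears ammonia for the fetus.

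The stretches before the annotated transcription starts of 3 members are shown. Among the members for which a stretch was available, these genes mark contrasts reported for the arrays. No stretch was available for Cps1 and Arg1. Glul was past 1.5-fold in KO over WT P1 liver and past 2-fold in P1 liver over E14 Dlk+ cells in both genotypes. Slc25a15 lay just under 1.5-fold in the first contrast and passed 2-fold in KO alone in the second, and Otc was the member that was lower in P1 liver. Each is the 250 bases before the RefSeq start on the strand of the gene, 5′ to 3′, from build GRCm38.p6. Capitals mark matches, on either strand, to any of 5 short motifs: the CCAAT box (CCAAT), the TATA box (TATAAA), the GC box (GGGCGG), the core bound by the glucocorticoid receptor (AGAACA) and the core of the cAMP response element (TGACG).
Glul, chr1:153899679-153899928, plus strand: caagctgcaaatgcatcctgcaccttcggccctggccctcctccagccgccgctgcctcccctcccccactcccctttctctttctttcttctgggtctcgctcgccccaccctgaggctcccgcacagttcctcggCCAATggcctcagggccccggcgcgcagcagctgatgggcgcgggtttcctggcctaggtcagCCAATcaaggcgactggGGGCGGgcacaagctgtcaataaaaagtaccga
Slc25a15, chr8:22398622-22398871, minus strand: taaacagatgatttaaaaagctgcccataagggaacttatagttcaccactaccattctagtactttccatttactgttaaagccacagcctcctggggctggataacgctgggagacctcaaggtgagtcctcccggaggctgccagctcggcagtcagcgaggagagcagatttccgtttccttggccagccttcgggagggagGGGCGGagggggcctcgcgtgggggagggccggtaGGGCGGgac
Otc, chrX:10252055-10252304, plus strand: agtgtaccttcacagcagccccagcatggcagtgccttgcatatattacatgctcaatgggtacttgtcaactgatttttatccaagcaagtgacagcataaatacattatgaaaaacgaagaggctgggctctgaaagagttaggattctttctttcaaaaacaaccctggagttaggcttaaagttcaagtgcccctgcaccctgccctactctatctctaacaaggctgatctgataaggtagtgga

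The Glul stretch held 2 CCAAT boxes and 1 GC box. The Slc25a15 stretch held 2 GC boxes, and the stretch before its other annotated start, not printed, held 5, of which 2 overlap. The Otc stretch held none of the 5 motifs and had a GC content of 43.6%, against 64.8% for Glul, 57.6% for Slc25a15 and a median of 52.4% over all 32851 such stretches in the table. Over all stretches, 33.8% held a CCAAT box, 32.7% a GC box, 12.4% a TATA box, 16.1% the glucocorticoid receptor core and 17.8% the cAMP response core. In all, 6 of the 10 members had a stretch in the table, and Cps1, Asl, Arg1 and Gls2 had none. The arrays did not measure binding to any of the stretches.

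Mmp14, the targeted gene, had a signal of 104 in KO and 161 in WT P1 liver, a log2 ratio of -1.30, and of 132 in KO and 131 in WT E14 Dlk+ cells, a log2 ratio of -1.13. It was thus lower in KO on both arrays, and whether its probe lies in the altered part of the gene is not given in the sources used. A channel was called detectable above the mean of the blank spots plus 2 SD, after the highest 5% and lowest 5% of blanks were dropped. These thresholds were 87.0 in the KO and 50.5 in the WT channel of the P1 array, and 85.1 in the KO and 44.3 in the WT channel of the E14 array. Median signals over gene probes were 113 in the KO and 73.4 in the WT channel of the P1 array, and 122 and 58.5 in the KO and WT channels of the E14 array, so raw KO readings ran higher and only the normalised ratios compare genotypes. Hepatocyte and hepatoblast markers were detectable in all 4 channels (11 of 11 markers on the array). Of these, 7 were at least 1.5-fold lower in KO on each array, with medians of -1.05 in P1 liver and -0.76 in E14 Dlk+ cells. Under median centring in place of loess 3 were lower and 2 higher in KO P1 liver, with a median of -0.38, and 2 were lower and 2 higher in KO E14 Dlk+ cells, with a median of -0.0033. Several of these markers had whole-number readings, a kind found among the highest of each channel. On the E14 array these started at 32697 in KO and 28390 in WT, and the highest readings were 41406 and 45868. On the P1 array they started at 33958 in KO and 37242 in WT, and the highest readings were 62045 in KO and 65535 in WT. Whether the readings of either array lie at a limit of the scanner is not given in the sources used. The WT P1 channel also held lung genes. Of 10 lung epithelial markers, 6 were detectable in KO and 10 in WT P1 liver, with summed signals above blank of 206 in KO and 37354 in WT, whereas on the E14 array the sums were 96.1 in KO and 34.6 in WT. Other markers also differed by genotype. In KO P1 liver, 4 of 7 erythroid, 4 of 6 detectable endothelial, 3 of 10 stellate and 2 of 7 neutrophil markers were at least 1.5-fold lower, against 4.12% of all genes. Their medians were -0.59, -0.73, -0.27 and -0.38, and 0 of 9 macrophage markers were past that size. Under median centring 2 erythroid, 3 endothelial, 3 stellate and 0 neutrophil markers were lower by that size, against 2.52% of all genes. The neutrophil median was then 0.17, and 1 erythroid and 1 macrophage marker were higher by that size. In KO E14 Dlk+ cells, 3 of 10 stellate markers were at least 1.5-fold higher, against 0.307% of all genes, with 9 above 0 and a median of 0.42. All 7 neutrophil markers were above 0 with a median of 0.32, but their signals above blank summed to only 357 in KO and 69.1 in WT. Under median centring 8 stellate markers were higher by that size, when 24.9% of all genes were, and 5 of 7 neutrophil markers were above 0. The part of any marker list in the ratios reported here was not tested. In bulk RNA, fewer cells of a type and less RNA per cell cannot be told apart.

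In P1 liver, Cps1 and Glul were the members with a difference of at least 1.5-fold, and both were higher in KO. Slc25a15 and Asl lay just under that size, and Nags, Otc, Arg1 and Slc25a13 had ratios near 1. All ratios are log2 of KO over WT after background correction and loess normalisation, and with 1 array they have no replicate error and no test. Between different probes of a gene, an SD of 0.22 on the log2 scale was found over 140 genes of the P1 array, and repeated spots of a control had an SD between 0.051 and 0.096 over 24 spots each. An SD between repeated spots leaves out any shift that they share. The positive controls of that array had mean log2 ratios of -0.41 and -0.77 after normalisation. No SD between livers can be had.

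The enzymes of the mitochondrial steps went apart. Cps1 (probe M300004875) encodes carbamoyl phosphate synthetase, which makes carbamoyl phosphate from ammonia and is the rate-setting enzyme of the cycle. Its signal was 1421 in KO and 452 in WT P1 liver, a log2 ratio of 1.06 or 2.08-fold, and the authors' deposited value was 1.29. It ranked 51st from the highest of 12715 genes detectable in both channels of that array, of which 0.558% were at least 2-fold higher in KO. Nags (M300019033) makes N-acetylglutamate, the activator that carbamoyl phosphate synthetase requires. Its signal was 551 in KO and 373 in WT, a log2 ratio of 0.01. Otc (M200000993) encodes ornithine transcarbamylase, which joins carbamoyl phosphate to ornithine. Its signal was 1078 in KO and 713 in WT, a log2 ratio of -0.01, so neither the activator nor the next enzyme shared the ratio of Cps1.

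Among the cytosolic enzymes, Asl had the higher ratio. Asl (M200004710) encodes argininosuccinate lyase, which releases arginine and fumarate. Its signal was 7007 in KO and 2977 in WT P1 liver, a log2 ratio of 0.54 or 1.45-fold. The authors' deposited value was 0.81, past 1.5-fold, and with the local background used in the correction the ratio was 0.19. Arg1 (M200009731) encodes liver arginase, which splits arginine into urea and ornithine. Its signal was 29304 in KO and 16117 in WT, a log2 ratio of 0.07, and the authors' deposited table gave 0.43. The KO reading of Arg1 lay below 33958, the lowest whole-number reading of that channel, a kind found among the highest readings of a channel.

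The 2 carriers differed. Slc25a15 (M200012968) encodes the mitochondrial ornithine and citrulline carrier. Its signal was 584 in KO and 271 in WT P1 liver, a log2 ratio of 0.57 or 1.49-fold, and 0.74 in the authors' deposited table. Slc25a13 (M200004917) encodes citrin, the aspartate and glutamate carrier that supplies aspartate to the cytosol. Its signal was 5956 in KO and 3645 in WT, a log2 ratio of 0.01, and the authors' deposited table gave 0.27.

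Glul (M400000930) encodes glutamine synthetase, the pericentral enzyme that takes up residual ammonia. Its signal was 1186 in KO and 466 in WT P1 liver, a log2 ratio of 0.76 or 1.70-fold, and 0.96 in the authors' deposited table. It ranked 164th from the highest of the 12715 genes. Thus Cps1, assigned to the periportal zone, and Glul, assigned to the pericentral zone, were both higher in KO P1 liver. RNA of whole liver gives no position in the lobule, so the zones were not measured here.

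Of the 8 members, 2 were higher in KO P1 liver by 1.5-fold or more and 0 were lower by that size. Among all genes of that array, 2.85% were higher by that size and 4.12% lower. The median over the members was 0.31, against -0.0018 over all genes, and 7 of 8 members had a ratio above 0, against 49.6% of all genes. Cps1 was at least 1.5-fold higher under each of the alternatives run. With the local background used in the correction, Glul was at 0.52 and Slc25a15 at 0.79, so the pair past 1.5-fold was then Cps1 and Slc25a15. Arg1, Nags, Otc and Slc25a13 were then below 0. Over all genes 6.93% were higher and 3.59% lower by 1.5-fold with that background. Under median centring in place of loess 5 members were at least 1.5-fold higher and 0 lower, with Asl, Arg1 and Slc25a15 joining Cps1 and Glul, and over all genes 10.2% were then higher and 2.52% lower by that size.

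**Figure D1:**
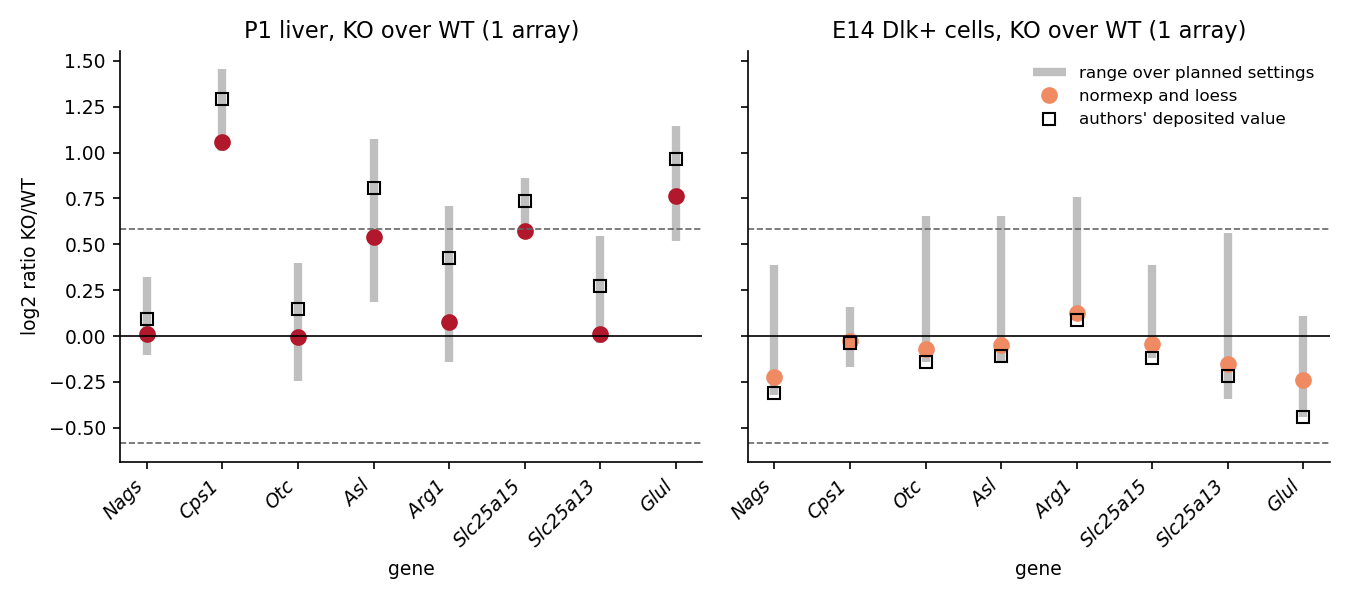
Log2 ratio of KO over WT (vertical axis) for the 8 members (horizontal axis), for P1 liver at left and E14 Dlk+ cells at right, 1 array each. Filled circles are the normexp and loess values, open squares the authors' deposited values, grey bars the range over the planned settings, and dashed lines 1.5-fold. Cps1 (1.06) and Glul (0.76) stand above the upper line in P1 liver, and the E14 circles all lie between -0.24 and 0.12.

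In E14 Dlk+ cells, 0 of the 8 members were at least 1.5-fold higher or lower in KO. In these main values that size was reached upward by 0.307% and downward by 0.22% of 12705 genes. The member median was -0.06, against 0.01 over all genes, and 1 of 8 members, Arg1 at 0.12, had a ratio above 0, against 53.1% of all genes. Under median centring 7 of the 8 were above 0 and with the local background 4, and under median centring the median was 0.48 over the members and 0.29 over all genes, so the direction on this array depends on the scaling. The shares past 1.5-fold also moved. In the authors' deposited values 5.38% of all genes were higher and 1.22% lower, and with blank subtraction 2.85% and 3.32%, with 0 members in either. Under median centring 24.9% of all genes and 3 of the 8 members were higher by that size. The SD between different probes of a gene was 0.12 on this array over 140 genes.

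The lowest member ratios in E14 Dlk+ cells were those of Glul and Nags. Glul had a signal of 224 in KO and 119 in WT cells, a log2 ratio of -0.24, and the authors' deposited table gave -0.44. Nags had 605 in KO and 297 in WT, a log2 ratio of -0.22. Slc25a13 had 2232 in KO and 1024 in WT, a log2 ratio of -0.15. All 3 were below 0 by less than 1.5-fold, and the other 5 members lay nearer to 0 on either side.

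Otc had a signal of 3598 in KO and 1562 in WT E14 cells, a log2 ratio of -0.07. Asl had 1689 in KO and 722 in WT (-0.05), and Slc25a15 had 298 in KO and 135 in WT (-0.04). Arg1 had 799 in KO and 307 in WT, with the ratio of 0.12 given above. Cps1 was dim in these cells. Its signal was 99.99 in KO and 50.03 in WT, which is 8.71 blank SD above the blank mean in KO and 7.78 in WT, so its ratio of -0.03 rests on a weak signal.

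The difference between the arrays was largest, among the members, for Cps1 and Glul. The P1 log2 ratio minus the E14 log2 ratio was 1.09 for Cps1 and 1.0 for Glul, then 0.62 for Slc25a15 and 0.59 for Asl. It was 0.23 for Nags, 0.16 for Slc25a13, 0.07 for Otc and -0.05 for Arg1. Stage, sorting and array cannot be told apart in these differences, and none was tested.

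P1 liver differed from E14 Dlk+ cells far more than KO differed from WT. Arg1, Cps1, Glul, Asl and Slc25a13 were at least 2-fold higher in P1 liver in both genotypes, Slc25a15 in KO, and Otc was at least 2-fold lower in both. Levels here are per-channel values after loess within and Aquantile normalisation between the arrays, which otherwise were processed separately. Among 12005 genes detectable in all 4 channels, a level 2-fold or more above E14 was found for 6.2% in the P1 KO channel, and one 2-fold or more below E14 for 6.32%. In the WT channels these shares were 6.7% above and 4.84% below. Of the 8 members, 6 were higher and 1 lower by that size in KO, and 5 higher and 1 lower in WT. The member median of the log2 difference was 2.10 in KO and 1.69 in WT, against -0.06 over all genes in each genotype.

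**Figure D2:**
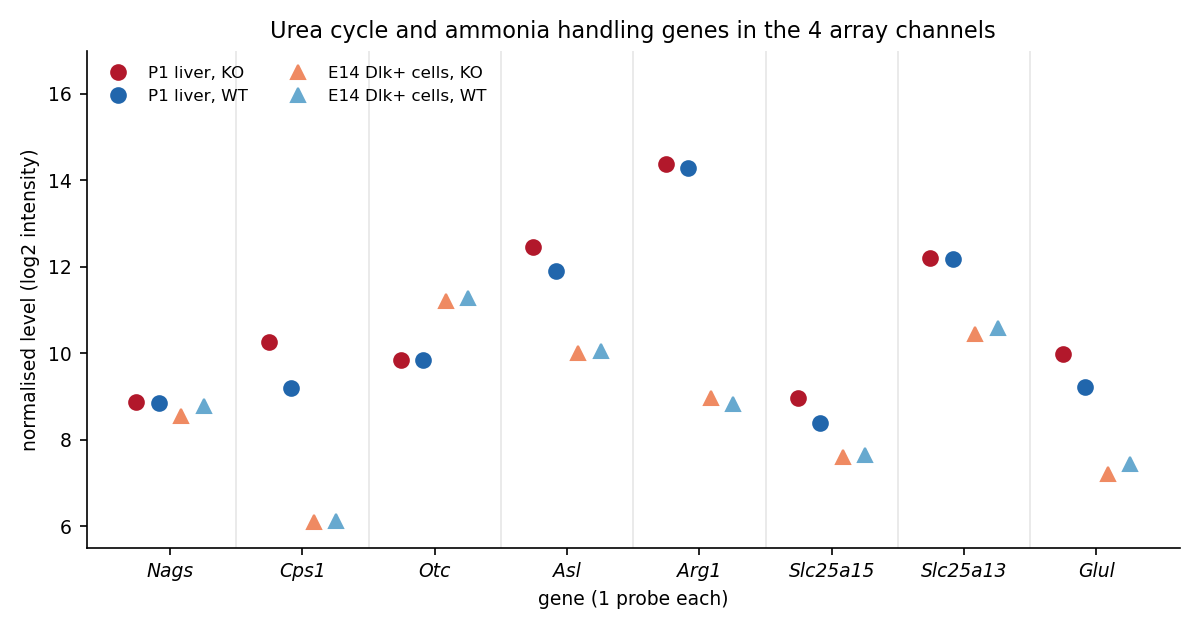
Normalised level on the log2 intensity scale (vertical axis) of the 8 members in the 4 array channels, 1 value each: P1 liver as circles and E14 Dlk+ cells as triangles, KO in red shades and WT in blue shades. Levels of different genes come from different probes and are not comparable; within a gene, both P1 points lie above both E14 points for 7 members and below them for Otc.

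Arg1 had the largest difference of the members in WT under every setting run, and in KO under the main setting, at 5.42 on the log2 scale in KO, or 42.7-fold, and 5.46 in WT, or 44.1-fold. It ranked 21st in KO and 19th in WT from the highest of the 12005 genes. Its KO and WT levels lay together at each stage. Arginase is made by macrophages as well as by hepatocytes, and macrophage markers were detectable in 9 of 9 cases in both P1 channels, against 6 in KO and 5 in WT E14 cells. The 3 detectable in all 4 channels had a median log2 difference of 1.28 in KO and 1.55 in WT. Their part in the difference was not tested.

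Cps1 was next, higher in P1 liver by 4.16 on the log2 scale in KO and 3.07 in WT. Because its E14 signal was close to blank, this size depends on the background correction, and it ranged from 4.14 to 6.66 in KO and from 2.81 to 5.38 in WT over the settings run. In KO, Cps1 lay above Arg1 under 3 of these: 6.04 against 5.63 with no normexp offset, 6.66 against 5.69 with blank subtraction, and 6.58 against 5.81 with 75th percentile scaling. Glul differed by 2.79 in KO and 1.78 in WT, Asl by 2.43 in KO and 1.85 in WT, and Slc25a13 by 1.76 in KO and 1.60 in WT. Slc25a15 differed by 1.36 in KO and 0.74 in WT. The order of levels was P1 KO, P1 WT and then the E14 channels for all members except Otc. For Arg1, Nags and Slc25a13 the P1 KO and P1 WT levels were closer than the SD between probes, at 12.20 and 12.19 for Slc25a13.

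Nags and Otc were the members not 2-fold higher in P1 liver in either genotype. Nags was at 0.31 in KO and 0.08 in WT on the log2 scale, less than the SD between probes of a gene for such differences, 0.56 in KO and 0.52 in WT over 124 genes. Otc was lower in P1 liver by a log2 difference of -1.37 in KO and -1.43 in WT. In folds, the Otc level of E14 Dlk+ cells was 2.58 times that of P1 liver in KO and 2.70 times in WT. It stood at the 3.08th percentile of all genes in KO and the 1.88th in WT. Both genotypes gave the direction of every member alike, but they share the 2 arrays and their normalisation. The lung markers summed to 206 in the KO and 37354 in the WT channel of the P1 array, and their part in these differences was not tested.

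The sorted cells and whole liver differ in makeup, which moves with these differences. Dlk1, which encodes the sorting antigen, was lower in P1 liver by a log2 difference of -5.60 in KO and -5.73 in WT. Blood cell markers were higher, with a median log2 difference of 2.14 in KO and 2.40 in WT over 7 erythroid markers, and of 5.66 in KO and 6.08 in WT over 7 neutrophil markers. Hepatocyte and hepatoblast markers had a median of 0.18 in KO and -0.10 in WT over 11 genes, several of them with whole-number readings. The part of cell makeup in the member values was not tested.

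**Figure D3:**
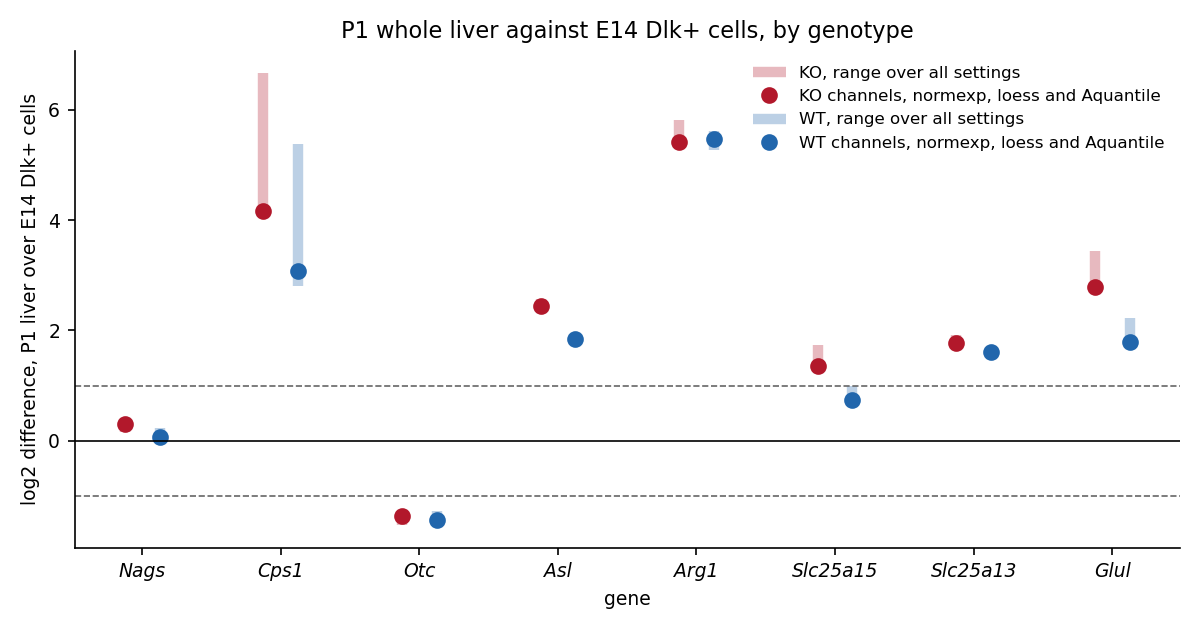
Log2 difference of P1 liver over E14 Dlk+ cells (vertical axis) for the 8 members (horizontal axis), KO in red at left and WT in blue at right of each pair. Circles are the main values, pale bars the range over all settings run, and dashed lines 2-fold; the circles of Arg1 are highest at 5.42 in KO and 5.46 in WT, the KO bar of Cps1 reaches 6.66, above that of Arg1, and Otc is the member below the lower line, at -1.37 in KO and -1.43 in WT.

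Other genes were described from 9 lists, of nitrogen metabolism, amino acid transport, regulators, lobule zones and the mitochondrial matrix. Not all of their genes are of nitrogen metabolism. Together the lists hold 131 genes detectable in both channels of the P1 array and none of the members. Some genes, such as Sds and Hal, are in several lists and were counted once here. In P1 liver, 24 of them (18.3%) were past 1.5-fold upward in KO and 11 (8.4%) downward, against the 2.85% and 4.12% of all genes. Under median centring the split was 60 higher and 6 lower, when 10.2% of all genes were higher and 2.52% lower. In the authors' deposited values it was 49 and 16, when 11.9% of all genes were higher and 12.2% lower. In E14 Dlk+ cells, 0 of 127 were higher and 1 lower by that size, the transferrin gene Trf, whose reading was a whole number, a kind found among the highest of a channel.

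Genes of amino acid breakdown, the source of the ammonia, were the list with the most genes higher in KO P1 liver, and also the largest list. Of 24 detectable genes 8 were at least 1.5-fold higher and 0 lower, with a median of 0.48. With the local background 10 were higher and 1 lower, when 6.93% of all genes were higher and 3.59% lower by that size. The 3 highest were Tdo2 (1.86), which opens the tryptophan ring, the tyrosine aminotransferase gene Tat (1.73) and the serine dehydratase gene Sds (1.41). The signal of Sds was 1717 in KO and 428 in WT P1 liver. On the E14 array 0 of 23 reached 1.5-fold and the median was -0.03, whereas under median centring 12 of 23 were higher with a median of 0.60, when 24.9% of all genes were higher by that size. Genes of the mitochondrial matrix and citric acid cycle had a P1 median of 0.42, with 4 of 14 higher and 0 lower, among them Idh2 (0.81), Fh1 (0.73), which uses the fumarate released by argininosuccinate lyase, and Idh3a (0.73).

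Enzymes around glutamate and glutamine had a P1 median of 0.27, with 4 of 15 higher and 0 lower. The highest were Gclc (1.14), which starts glutathione synthesis from glutamate, Got1 (0.98), the cytosolic aspartate aminotransferase, and Prodh (0.71), the proline dehydrogenase. With the local background 3 of the 15 were higher, Gclc, Got1 and Got2, when 6.93% of all genes were. Got2 was then at 2.47, against 0.27 in the main values, and Prodh was at 0.48. Oat, an ornithine aminotransferase found with glutamine synthetase around the central vein, was at 0.56. Glud1, the glutamate dehydrogenase that releases ammonia in mitochondria, was at -0.30, and at 0.23 under median centring. Among carriers and carbonic anhydrases, Car5a, which supplies bicarbonate to carbamoyl phosphate synthetase, was at 0.68 and was the single gene of 10 past 1.5-fold. With the local background Car5a was at 0.48, and Slc25a12 (0.83) and Slc25a10 (0.72) were the genes past that size. The second aspartate and glutamate carrier, Slc25a12, was at 0.40, and Slc25a22, a glutamate carrier, at -0.17. Slc25a2, the second ornithine carrier, was not detectable in both channels.

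Genes that use or move arginine and other amino acids went both ways in P1 liver. Slc7a2, a transporter of arginine and ornithine, was at 1.62, with a signal of 631 in KO and 144 in WT. Slc38a5 (-1.28) and Slc1a5 (-0.75), both glutamine transporters, were lower, although Slc1a5 was at 0.17 with the local background used. Of 15 transporter genes 1 was higher and 2 lower. Slc38a3, a glutamine transporter of hepatocytes, was at 0.11. Among 11 genes of arginine use, 0 were higher and 2 lower, Gamt (-1.16), of creatine synthesis, and Ddah2 (-0.88), which degrades methylated arginines. With the local background 2 were higher and 1 lower, and Gamt was at -0.47. Of the genes given here by name, Slc1a5, Glud1, Slc25a22 and Slc38a3 changed sign under a planned setting, Slc25a22 to 0.22 under median centring and Slc38a3 to -0.09 with the local background. Arg2, the mitochondrial arginase, was at 0.04 near the detection threshold, with a signal of 95.9 in KO and 56.4 in WT.

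Among the regulators, those past 1.5-fold in the main values were a coactivator, an amino acid regulator and a deacylase. Hnf4a was at 0.31, Cebpb at 0.06 and Cebpa at -0.23 in P1 liver, and Nr3c1, the glucocorticoid receptor, was not detectable in both channels. Ppargc1a, a fasting coactivator, was at 1.67, Klf15, which drives amino acid breakdown, at 0.88 and Sirt5, a deacylase that acts on carbamoyl phosphate synthetase, at 0.60. Of 19 genes of this list 3 were higher and 0 lower. The set depends on the processing: Sirt5 was at 0.38 with the local background, and under median centring Hnf4a (0.78), Ppara (0.85) and Sirt3 (1.0) also passed.

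The gene lists of the lobule zones to which Cps1 and Glul are assigned did not each go one way. Of 12 periportal genes 3 were higher, Sds (1.41), Pck1 (0.89) and Hal (0.70), and 2 lower, Cyp2f2 (-1.495) and Trf (-1.08). Sds and Hal are also among the higher genes of the amino acid breakdown list. With the local background Hal was at 0.29 and Pck1 at 0.57, both under 1.5-fold. Cyp2f2 is also a gene of lung club cells. Of 18 pericentral genes 2 were higher, Cyp7a1 (0.71) and Slco1b2 (0.67), and 5 lower. The lowest of these were Tbx3 (-0.90), Nkd1 (-0.82) and Cyp2e1 (-0.82), all targets of Wnt signalling in liver. The pericentral median was -0.18, and under median centring it was 0.01 with 4 genes higher and 2 lower. Rhbg, an ammonia transporter, was at 0.40, and Slc1a2, a glutamate transporter that accompanies glutamine synthetase, was at 0.10 near the threshold. Glul, at 0.76, had the opposite sign to Tbx3, Nkd1 and Cyp2e1, which were picked as the lowest of the list. Of the 18 pericentral genes, 8 were above 0, as Glul was, and 10 below. Not all sizes held: with the local background Glul was at 0.52, Cyp7a1 at 0.42, Tbx3 at -0.50 and Nkd1 at -0.37. Under median centring Cyp2e1 was at -0.21.

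The genes of amino acid breakdown also shared the members' direction between the arrays. Of 23 detectable in all 4 channels, 16 were at least 2-fold higher in P1 liver than in E14 Dlk+ cells in KO and 11 in WT, and 0 were lower by that size in either genotype. The median log2 difference was 1.62 in KO and 0.96 in WT. Pck1, the gluconeogenic phosphoenolpyruvate carboxykinase gene of the periportal list, differed by 7.39 in KO and 6.49 in WT, and Tat by 7.52 in KO and 5.82 in WT. Around glutamate, Got1 was higher in P1 liver by 4.43 in KO and 3.31 in WT, and Oat by 2.61 in KO and 2.17 in WT. Glud1 was lower, at -1.41 in KO and -1.47 in WT, and Rhbg was at -3.02 in KO and -3.50 in WT. The KO over WT ratios and these differences use the same 4 channels, so they are not independent of each other.

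**Figure D4:**
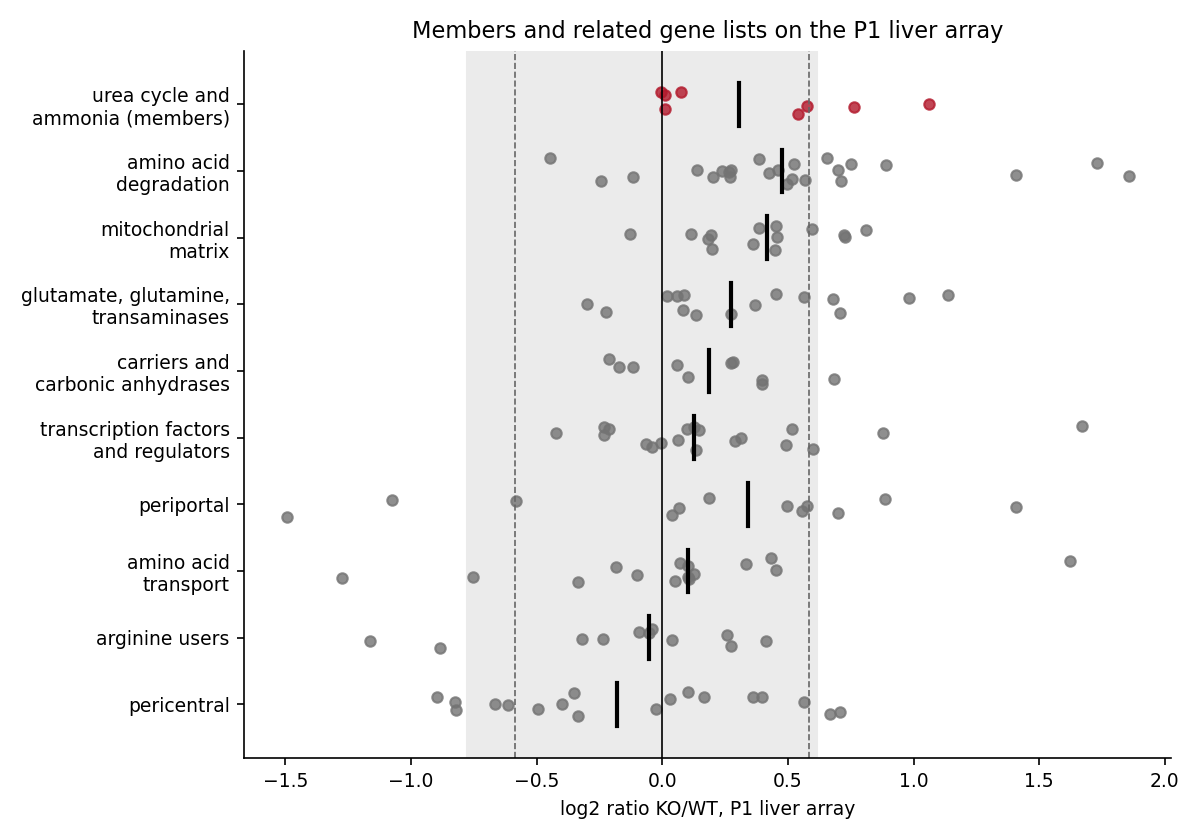
Log2 ratio of KO over WT on the P1 liver array (horizontal axis) for the 8 members in red and the genes of 9 related lists in grey, 1 point per gene detectable in both channels. Black bars are list medians, dashed lines 1.5-fold, and the grey band holds the central 95% of all genes, from -0.78 to 0.62; the median is 0.31 for the members, 0.48 for amino acid degradation and -0.18 for pericentral genes.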

How the data were processed

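Per the labels' protocols, an amino allyl kit was used to amplify and label the RNA. Scanner files, as deposited, hold the median spot intensity of each channel and a local background, per the file headers, with no normalisation. The deposited table of the authors holds log2 ratios. Set against the scanner values, these equalled KO over WT after subtraction of the trimmed blank mean and centring on the array median, to within 0.001 for all but 1 probe on each array, with column medians of -2.74e-05 (P1) and 7.21e-07 (E14). How the authors made this table is otherwise not stated in the material used.

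The main values used limma 3.58.1 in R 4.3.3: normexp on the spot signal with an offset of 50, which shrinks ratios of dim genes, then loess within each array with control spots at weight 0. Channel levels across arrays were set with Aquantile. Probes of a gene detectable in both channels were averaged, and 4 probes with a quality flag were left out. Probe names came from the platform annotation (16631 of 23473 gene probes had 1 gene symbol, none had several and 6842 had none). Of these, 3947 symbols were updated with a RefSeq table of GRCm38.p6. The files name no genome build. The number of arrays limits the precision, and no comparison has a test, so differences were counted at 1.5-fold within an array and 2-fold between arrays. The ratio steps were run on simulated data with known changes in probes brighter than the median. That run did not cover dim genes such as Cps1 in E14 Dlk+ cells. Genes named beyond the members were the up to 3 highest and 3 lowest of each list past 1.5-fold, and genes fixed by name. The members and lists were chosen with earlier results of these data known.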

Additional observations from a re-analysis of the deposited data

Results flagged for a closer look

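The KO over WT ratio of Cps1 and of Glul was past 1.5-fold in P1 liver but not in E14 Dlk+ cells. There the ratio of Cps1 was near 0, within the SD of 0.12 between probes of a gene on that array, and that of Glul was below 0. For Cps1 the log2 ratio was 1.06 in P1 liver and -0.03 in E14 Dlk+ cells, a difference of 1.09, and the E14 value was 0.16 with the local background. For Glul it was 0.76 in P1 liver and -0.24 in E14 Dlk+ cells, a difference of 1.0, and the E14 value was 0.11 when centring on the median replaced loess, while its P1 value was 0.52, under 1.5-fold, with the local background. The differences were not tested, because each rests on 1 array. The Cps1 signal in E14 Dlk+ cells was close to blank, and the WT channel of the P1 array held lung genes, whose part in these values was not tested.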

How the results depend on the processing

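The counts of members at least 2-fold different between P1 liver and E14 Dlk+ cells, 7 in KO and 6 in WT, were the same under the 5 alternatives that could change them, and all 8 members kept their sign there. The other 2, a stricter detection limit and the brightest probe, could not move members that are bright enough and have 1 probe each. KO over WT counts depended more on the processing. Main values at 1.5-fold were 2 members in P1 liver, 0 in E14 Dlk+ cells, and 35 (P1) and 1 (E14) genes of the related lists. Under median centring these were 5 and 3 members and 66 and 52 related genes, with member medians of 0.78 (P1) and 0.48 (E14), but 10.2% (P1) and 24.9% (E14) of all genes were then higher by that size. In the authors' deposited values 4 members and 65 (P1) and 4 (E14) related genes passed, with a P1 member median of 0.58. Of all genes, 11.9% were then higher and 12.2% lower (P1), and 5.38% higher and 1.22% lower (E14). With the local background the P1 member median was 0.074 and 10 of 127 related E14 genes passed, when 3.84% of all E14 genes were higher and 0.244% lower. With blank subtraction 3 of 127 did, when 2.85% of all E14 genes were higher and 3.32% lower. Subtracting the median ratio of hepatocyte markers, chosen after seeing the data and resting on genes of which several had whole-number readings, gave 8 members in P1 liver and 6 in E14 Dlk+ cells, medians of 1.36 and 0.70, and 118 and 117 related genes. It adds a constant to every gene, and 93.7% (P1) and 96.5% (E14) of all genes then passed upward, so these counts say nothing of the members. Blank subtraction and median centring for the comparison of P1 with E14 were also added after seeing the data. Apart from what these settings do by construction, the cause was not tested. With dim signal, the ratio of Cps1 in E14 Dlk+ cells is limited by signal over background.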
